A study of Saccharomyces cerevisiae with 15 samples.

Results

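Rapamycin and nitrogen starvation both withdraw a growth signal from yeast, and the question here was which parts of the response to nitrogen starvation are also seen when rapamycin alone is given. For every gene, the log2 ratio on the nitrogen starvation array was subtracted from the log2 ratio on the rapamycin array. A positive difference therefore means a higher ratio with rapamycin. The genes used were those with a value other than 0 on both arrays, which gave 5182 of the 6249 genes or probes in the series. Of these, 3683 had a gene symbol.

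The rapamycin array held wild-type cells (strain ACY044, W303 background, mating type a) grown in SD, a synthetic medium with glucose, and given 200 nM rapamycin for 20 minutes. The nitrogen starvation array held cells of the same strain moved for 20 minutes to SD without nitrogen, which the labels call total nitrogen starvation. On both arrays the treated cells were labelled with Cy5 and wild-type cells in mid-log growth with Cy3, so a dye effect of a probe that was the same on both arrays cancels in the difference. Both ratios are set against a control that carries the same label, and the labels do not say whether it was the same culture. They name no vehicle for rapamycin, no mock change of medium for either array and no composition of the starvation medium. Further arrays of the series, also taken at 20 minutes, are quoted beside a result. An snf1 array compared nitrogen-starved snf1 cells (ACY509, lacking the yeast AMP-activated protein kinase) with snf1 mid-log cells. The others compared wild-type cells with wild-type mid-log cells, after amino acid starvation, nitrogen starvation with 0.375 M KCl, or glucose starvation. The glucose-starved cultures were a pair, 1 also given 200 nM rapamycin and the other also starved of nitrogen. Every condition had 1 array, so no difference below has an error or a test, and the values describe these arrays. The files hold ratios and no levels, so the identity of the strain could not be checked from marker genes.

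TORC1 is a protein kinase complex that promotes growth when nitrogen is plentiful, and rapamycin, bound to the small protein FKBP12, inhibits it. In budding yeast, active TORC1 keeps the GATA factors Gln3 and Gat1 from switching on genes for poor nitrogen sources, which is called nitrogen catabolite repression. It also acts through Sch9, Sfp1 and other factors to keep ribosomal protein and ribosome assembly genes on, and it restrains the retrograde response driven by Rtg1 and Rtg3. Amino acid biosynthesis has regulators of its own, above all Gcn4, and sulfur amino acid synthesis is switched on by Met4 when cysteine and other sulfur metabolites run low.

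Most genes had similar ratios on both arrays. The difference was within 2-fold (an absolute log2 value under 1) for 4471 genes (86.3%). Its median was −0.04, with quartiles of −0.42 and 0.38. At least 2-fold higher with rapamycin were 405 genes (7.82%), and at least 2-fold lower were 306 (5.91%). The extremes were CHA1 at 5.80 and SEO1 at −7.21. The rapamycin array alone had 581 genes at least 2-fold above mid-log cells (11.2%) and 595 below (11.5%), against 743 (14.3%) and 773 (14.9%) on the nitrogen starvation array. Against the wild-type and the snf1 starvation arrays alike, 359 genes were higher (6.95%) and 218 lower (4.22%) by 2-fold or more, and both comparisons use the 1 rapamycin array. The ratios were also somewhat narrower with rapamycin, with an SD over genes of 1.03 against 1.21.

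**Figure D1:**
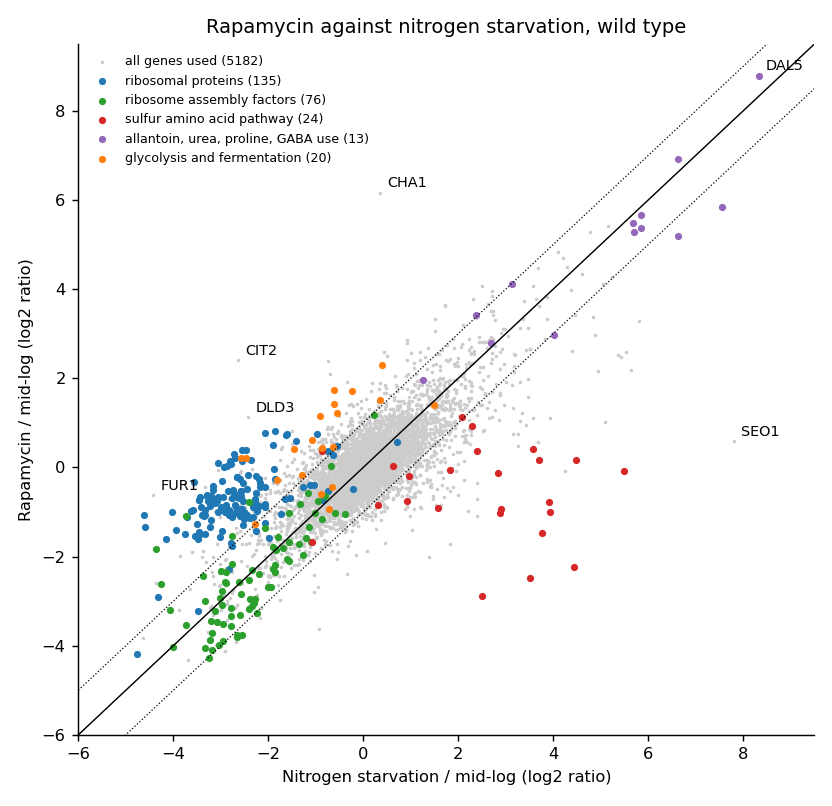
Each point is a gene, with its log2 ratio to mid-log cells on the rapamycin array on the vertical axis and on the nitrogen starvation array on the horizontal axis. The solid line marks equal ratios and the dotted lines a 2-fold difference. Ribosomal protein genes (blue) lie above the lines at the left, sulfur amino acid genes (red) lie below them at the right, and the allantoin, urea, proline and GABA genes (purple) run along the diagonal up to DAL5.

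Some of the named genes behind these counts fell into a few groups. Among the 335 named genes at least 2-fold higher with rapamycin, 117 (34.9%) encoded cytosolic ribosomal proteins, 16 belonged to glycolysis and fermentation and 14 were translation factors. Among the 209 at least 2-fold lower, 20 belonged to the sulfur amino acid pathway and 8 to purine synthesis. On any gene list were 211 of the 335 higher genes (63.0%) and 90 of the 209 lower ones (43.1%). Of 42 gene lists, 3 had a median difference of at least 1 and 2 a median of −1 or less, while 31 had a median within 0.5 of 0. The 3 high lists were the proteins of each ribosomal subunit and glycolysis, and the 2 low lists were the sulfur amino acid pathway and histidine synthesis.

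**Figure D2:**
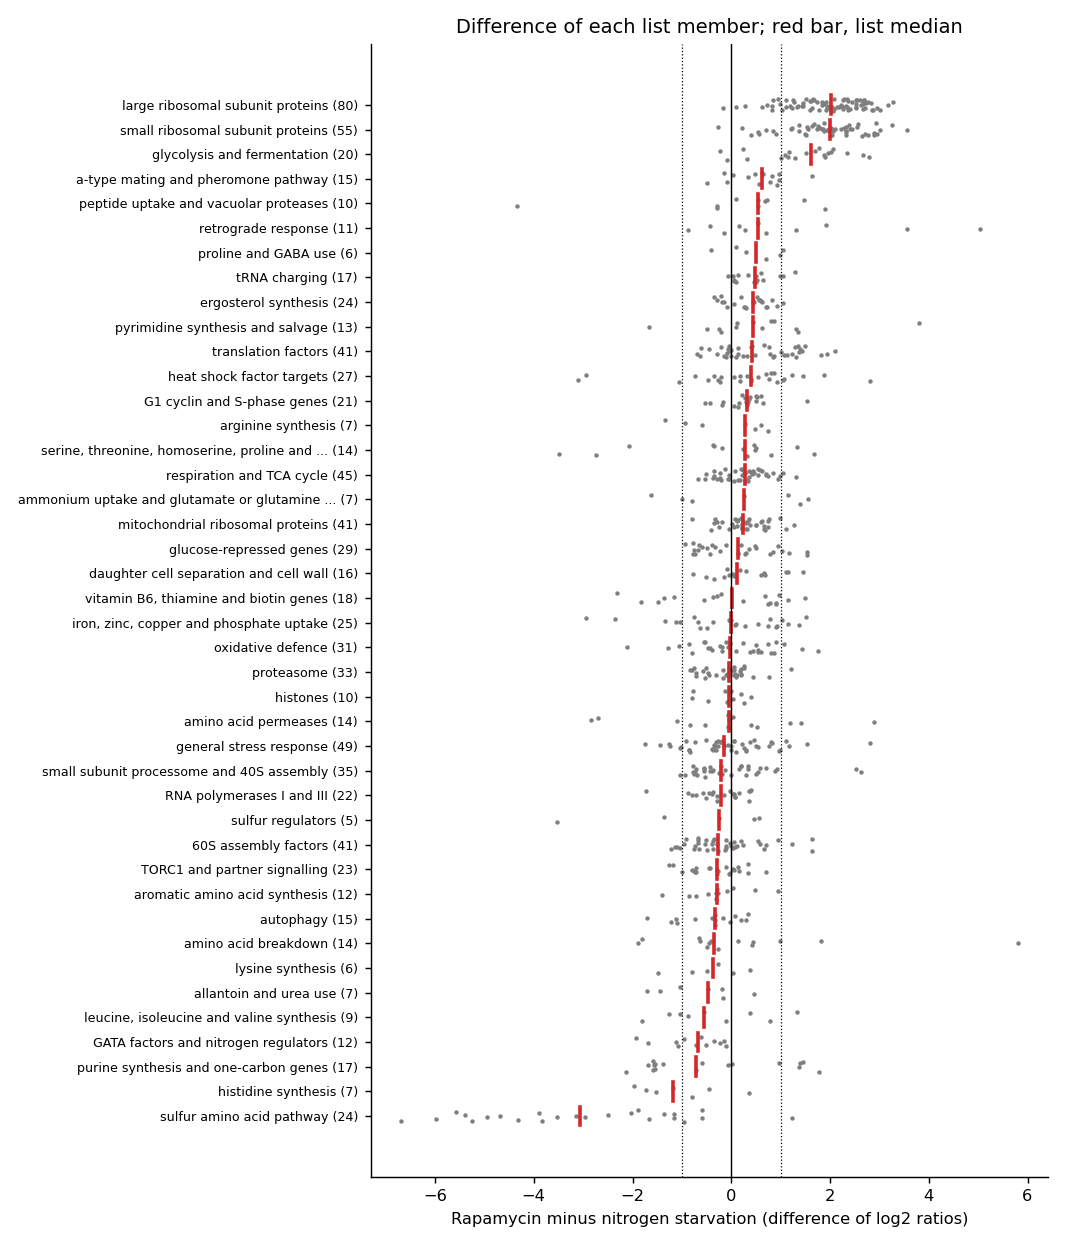
Differences of log2 ratios, rapamycin minus nitrogen starvation, for the members of 42 gene lists, sorted by their medians (red bars). The number of members used is in brackets and dotted lines mark a 2-fold difference. The lists run from ribosomal proteins near 2 at the top to the sulfur amino acid pathway at −3.06 at the bottom, with most medians close to 0.

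Genes for the use of poor nitrogen sources had very high ratios on both arrays. The 7 allantoin and urea genes used had a median log2 ratio of 5.48 with rapamycin against 5.84 in nitrogen starvation, and all 7 were at least 2-fold above mid-log cells on each array. DAL5, the allantoate permease, stood at 8.79 with rapamycin against 8.33 in nitrogen starvation, the highest value of either array. DAL2 (allantoicase) was at 5.67 and 5.84, DAL7 (malate synthase) at 5.48 and 5.67, and DAL1 (allantoinase) at 5.37 and 5.84, with rapamycin first. These 4 genes had nearly the same ratio under either treatment. The remaining 3 were at least 2-fold lower with rapamycin (5.91% of all genes used), although still high. With rapamycin values scaled to the spread of the nitrogen starvation array, these 3 no longer passed 2-fold (DAL4 −0.91, DUR3 −0.74 and DAL3 −0.64) and DAL5 had a difference of 1.64. The allantoin permease DAL4 was at 5.85 with rapamycin against 7.55 in nitrogen starvation, the urea permease DUR3 at 5.19 and 6.63, and the ureidoglycolate lyase DAL3 at 2.98 and 4.02.

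The proline and GABA genes were, on balance, slightly higher with rapamycin, with medians of 3.77 with rapamycin against 2.91 in nitrogen starvation and a median difference of 0.50 over 6 genes. The GABA permease UGA4 was at 6.92 with rapamycin against 6.63 in nitrogen starvation, and PUT1, proline oxidase, at 5.29 and 5.71. Among these 6, 1 passed 2-fold upwards (7.82% of all genes used). This was UGA1, the GABA transaminase, at 3.43 with rapamycin against 2.38 in nitrogen starvation. Genes that take up ammonium or build glutamate and glutamine were mixed. MEP2, the high-affinity ammonium permease, was at 5.41 with rapamycin against 5.16 in nitrogen starvation, whereas the permease MEP1 was at 0.34 and 1.97. Of the 7 genes of this list, 3 assimilating enzymes passed 2-fold upwards (7.82% of all genes used) and MEP1 downwards (5.91%). Glutamate synthase GLT1 had a lower ratio, at 0.15 with rapamycin against 0.94 in nitrogen starvation. Glutamine synthetase GLN1 was at 2.60 with rapamycin against 1.20 in nitrogen starvation. The glutamate dehydrogenases GDH3 and GDH1 were at 4.06 and 1.46 with rapamycin, against 2.50 and 0.31 in nitrogen starvation.

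All 12 genes of GATA factors and nitrogen regulators had a lower ratio with rapamycin, with a median of 0.35 against 1.26 in nitrogen starvation and a median difference of −0.67, where all genes used had −0.04. At least 2-fold lower were 4 of the 12, against 5.91% of all genes used. The activator GAT1 was at 0.34 with rapamycin against 2.03 in nitrogen starvation, and the repressor GZF3 at 0.07 and 1.99. UGA3, the activator of the GABA genes, was at 0.36 and 1.48, and NPR2, part of a complex that restrains TORC1, at 0.52 and 1.60. On the snf1 nitrogen starvation array GAT1 stood at 1.97 and GZF3 at 2.47, so both were also high there. The repressor DAL80 was high on both wild-type arrays, at 4.28 with rapamycin against 5.23 in nitrogen starvation. GLN3 itself was at 0.41 and 0.93, and URE2, which holds Gln3 in the cytoplasm, was at −1.23 with rapamycin against −0.61 in nitrogen starvation.

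Amino acid permeases split. Over 14 of them the median difference was −0.06. By 2-fold or more with rapamycin, 3 were higher (7.82% of all genes used) and 3 lower (5.91%). The general permease GAP1 was at 3.32 with rapamycin against 3.86 in nitrogen starvation, AGP1 at 3.63 and 3.70, and the dicarboxylic amino acid permease DIP5 at 3.82 and 3.86, so these 3 had ratios within 2-fold. GNP1, a glutamine permease, was at −0.43 with rapamycin against −3.33 in nitrogen starvation, and the tryptophan and tyrosine permeases TAT2 and TAT1 were at −0.79 and −2.12 with rapamycin, against −2.20 and −3.31 in nitrogen starvation. In the other direction, the branched-chain permease BAP2 was at −3.63 with rapamycin against −0.94 in nitrogen starvation. AGP3 was at 1.10 with rapamycin against 3.94 in nitrogen starvation, and the arginine permease CAN1 also had a lower ratio with rapamycin, with a difference of −1.09.

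CHA1, the serine and threonine deaminase, had the highest difference of all genes used. It stood at 6.16 with rapamycin against 0.36 in nitrogen starvation, and at 1.72 in nitrogen-starved snf1 cells and −1.26 in amino acid starvation. CHA1 is known to be induced by serine and threonine in the medium. Other amino acid breakdown genes had a median difference close to 0 (−0.35 for the 14 genes of the list, CHA1 included). BAT2, the cytosolic branched-chain transaminase, was at 3.32 with rapamycin against 1.50 in nitrogen starvation. CAR1, arginase, was at 2.98 with rapamycin against 4.87 in nitrogen starvation, and GCV1, of the glycine cleavage system, at 1.06 and 2.86. The difference of GCV1 against the snf1 starvation array was −0.93.

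Of 10 peptide uptake and vacuolar protease genes, 8 were at least 2-fold above mid-log cells with rapamycin and 6 in nitrogen starvation. The rapamycin ratio was at least 2-fold higher for 2 of the 10 (7.82% of all genes used). It was at least 2-fold lower for 1 (5.91%), OPT1, which is described with SEO1. PTR2, the di- and tripeptide transporter, was at 3.61 with rapamycin against 1.71 in nitrogen starvation, and the vacuolar carboxypeptidase CPS1 at 3.77 and 2.30. Protease B (PRB1) was at 1.94 and 2.22. Autophagy genes were lower with rapamycin in 4 of 15 cases by at least 2-fold (5.91% of all genes used) and higher in 0 (7.82%), with medians of 0.46 with rapamycin against 1.11 in nitrogen starvation. ATG1, the kinase that starts autophagy, was at 0.82 with rapamycin against 2.53 in nitrogen starvation. ATG5 was at 0.27 and 1.49, and ATG12, which is joined to Atg5, at −0.31 and 0.81. The vacuolar exporter ATG22 had almost equal ratios, 1.08 and 1.11.

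A pair of retrograde response targets stood on opposite sides of mid-log cells. CIT2, the peroxisomal citrate synthase and standard reporter of this pathway, was at 2.40 with rapamycin against −2.63 in nitrogen starvation. DLD3, a cytoplasmic D-lactate dehydrogenase that is another target, was at 1.13 and −2.42. These were the only 2 of the 5182 genes (0.0386%) that were at least 2-fold above mid-log cells with rapamycin and at least 2-fold below them in nitrogen starvation. On the snf1 nitrogen starvation array CIT2 was at −2.68 and DLD3 at −1.85, while in amino acid starvation they were at 1.29 and 0.40. Pyruvate carboxylase PYC1 was at 3.64 with rapamycin against 1.73 in nitrogen starvation, and mitochondrial citrate synthase CIT1 at 1.79 and 0.47. Over the 11 genes of the list the median difference was 0.54. At least 2-fold higher were 4 (7.82% of all genes used) and at least 2-fold lower 0 (5.91%). Aconitase ACO1 was at 0.04 and −0.50, the isocitrate dehydrogenase subunit IDH1 at 0.20 and −0.51, and the regulators RTG1 at −0.26 and 0.17, RTG2 at 0.34 and 0.48 and RTG3 at 0.02 and 0.90.

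The sulfur amino acid pathway showed the widest gap of any list. Its 24 genes used had a median log2 ratio of −0.48 with rapamycin against 2.68 in nitrogen starvation, and a median difference of −3.06. At least 2-fold lower with rapamycin were 20 of the 24, against 5.91% of all genes used. In nitrogen starvation 18 of the 24 stood at least 2-fold above mid-log cells and 1 below, whereas with rapamycin 1 stood above and 7 below. The same 24 genes had a median of 2.78 in nitrogen-starved snf1 cells, 1.94 in nitrogen starvation with KCl and 2.99 in amino acid starvation. The list therefore stood well above mid-log cells on each of these 3 arrays as well.

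Along the pathway, genes for uptake, reduction and methionine formation all differed. The S-methylmethionine permease MMP1 was at −2.24 with rapamycin against 4.44 in nitrogen starvation, and the methionine permease MUP1 at −2.88 and 2.51. The low-affinity permease MUP3 was at 0.17 with rapamycin against 4.48 in nitrogen starvation. In sulfate reduction, ATP sulfurylase MET3 was at 0.42 with rapamycin against 3.57 in nitrogen starvation, and adenylylsulfate kinase MET14 at −1.48 and 3.77. The sulfite reductase subunits MET5 and MET10 were at −1.01 and −0.77 with rapamycin, against 3.94 and 3.91 in nitrogen starvation. MET1 and MET8, which make the siroheme of that enzyme, were at −0.09 and −0.13 with rapamycin, against 5.49 and 2.84 in nitrogen starvation. All of these steps were thus near or below mid-log cells with rapamycin and far above them in nitrogen starvation.

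Methionine formation had the same pattern. Homocysteine synthase MET17 was at −1.03 with rapamycin against 2.87 in nitrogen starvation, and methionine synthase MET6 at −0.93 and 2.91. MHT1, which makes methionine from S-methylmethionine, was at −2.49 with rapamycin against 3.50 in nitrogen starvation. Recycling and later steps were closer or reversed. SAM4, a homocysteine methyltransferase, was below mid-log cells on both arrays, at −1.67 with rapamycin against −1.08 in nitrogen starvation. SAH1, which splits S-adenosylhomocysteine, was at 0.36 with rapamycin against −0.86 in nitrogen starvation, and was the 1 member at least 2-fold higher with rapamycin. Among the regulators, MET28, a cofactor of Met4, was at 0.17 and 3.70 and the F-box protein MET30 at 0.93 and 2.29. MET4 itself was at −0.03 and 0.22, and CBF1 at 0.38 and −0.18. A further 6 listed genes (MET2, MET16, MET32, STR3, SUL1 and SUL2) were listed at 0 on the rapamycin array and entered none of these counts.

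Several genes with large negative differences lay outside sulfate reduction and methionine synthesis. SEO1, annotated as a putative permease, was at 0.59 with rapamycin against 7.80 in nitrogen starvation, with 8.32 in nitrogen-starved snf1 cells and 7.56 in amino acid starvation. OPT1, which transports glutathione and small peptides, was at −0.08 with rapamycin against 4.25 in nitrogen starvation. At least 2-fold below mid-log cells with rapamycin and at least 2-fold above them in nitrogen starvation were 10 genes (0.193%). These included MMP1, MHT1, MUP1 and MET14 above, and also MNN4 at −1.73 and 1.82. Also among them were AQR1, a drug and amino acid exporter, at −2.02 and 1.39, and the aldehyde dehydrogenase ALD5 at −1.41 and 1.03. On the snf1 starvation array MNN4 was at 2.65, AQR1 at 0.73 and ALD5 at 0.89. In amino acid starvation they were at 1.39, −1.93 and 1.70. SER3, which starts serine synthesis, was at −1.09 with rapamycin against 2.40 in nitrogen starvation, and its paralog SER33 at −0.34 and 2.40. SER3 and SER33 are similar in sequence and can share signal.

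Synthesis of the other amino acids showed smaller and mixed differences. Histidine synthesis had medians of 0.14 with rapamycin against 0.71 in nitrogen starvation, and a median difference of −1.19 over 7 genes. At least 2-fold lower were 4 of the 7, against 5.91% of all genes used. Against the snf1 starvation array the median was −0.89, and of these 4 genes 2 still passed 2-fold, without HIS4 (−0.97) and HIS3 (−0.89). HIS4 was at 0.53 with rapamycin against 2.25 in nitrogen starvation, HIS5 at 0.14 and 2.11, and HIS3 at 1.11 and 2.64. The list medians for the branched-chain amino acids (−0.55), lysine (−0.38), the aromatic amino acids (−0.30) and arginine (0.28) were closer to 0. Of 9 branched-chain genes, 3 were at least 2-fold lower with rapamycin (5.91% of all genes used) and 1 higher (7.82%). The lysine, aromatic and arginine lists each had 1 gene at least 2-fold lower and 0 higher. LEU2, for example, was at −0.87 with rapamycin against 0.93 in nitrogen starvation, LYS2 at −0.38 and 1.10, ARO3 at −0.32 and 1.09, and aspartate kinase HOM3 at −1.08 and 0.99. THR1, homoserine kinase, went the other way, at 0.36 and −1.32. The GCN4 messenger RNA itself, whose product is controlled mainly by translation, was at 0.41 with rapamycin against 0.51 in nitrogen starvation.

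Purine genes were mixed. The median difference over 17 genes was −0.72. At least 2-fold lower with rapamycin were 8 (5.91% of all genes used) and at least 2-fold higher 4 (7.82%). Among the 8 lower genes, ADE17 was at 1.22 with rapamycin against 3.35 in nitrogen starvation, ADE13 at −0.10 and 1.58, and ADE12 at 0.29 and 1.88. ADE16, the paralog of ADE17, was at −0.15 and −0.09, and ADE3 at 0.84 and 0.82, so both were nearly equal. The 4 higher genes were all of the guanine branch (IMD2, IMD3, IMD4 and GUA1), with IMD4 at −2.59 and −4.37 and GUA1 at −0.36 and −1.82. The IMD genes are paralogs and can share signal. On the snf1 nitrogen starvation array ADE17 was at 1.07, below its rapamycin value, and 0 of the 17 genes were at least 2-fold lower with rapamycin than on both nitrogen starvation arrays. In pyrimidine use, FUR1, which salvages uracil, was at −0.63 with rapamycin against −4.43 in nitrogen starvation, while CTP synthase URA7 was at −3.83 and −4.64. Among the vitamin genes, the biotin permease VHT1 was at −0.43 with rapamycin against 1.88 in nitrogen starvation, and the vitamin B6 genes SNO1 and SNZ1 were at 1.34 and 1.28 with rapamycin, against 3.16 and 2.77 in nitrogen starvation. Against the snf1 starvation array these B6 genes did not pass 2-fold, with differences of −0.04 for SNO1 and −0.34 for SNZ1.

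**Figure D3:**
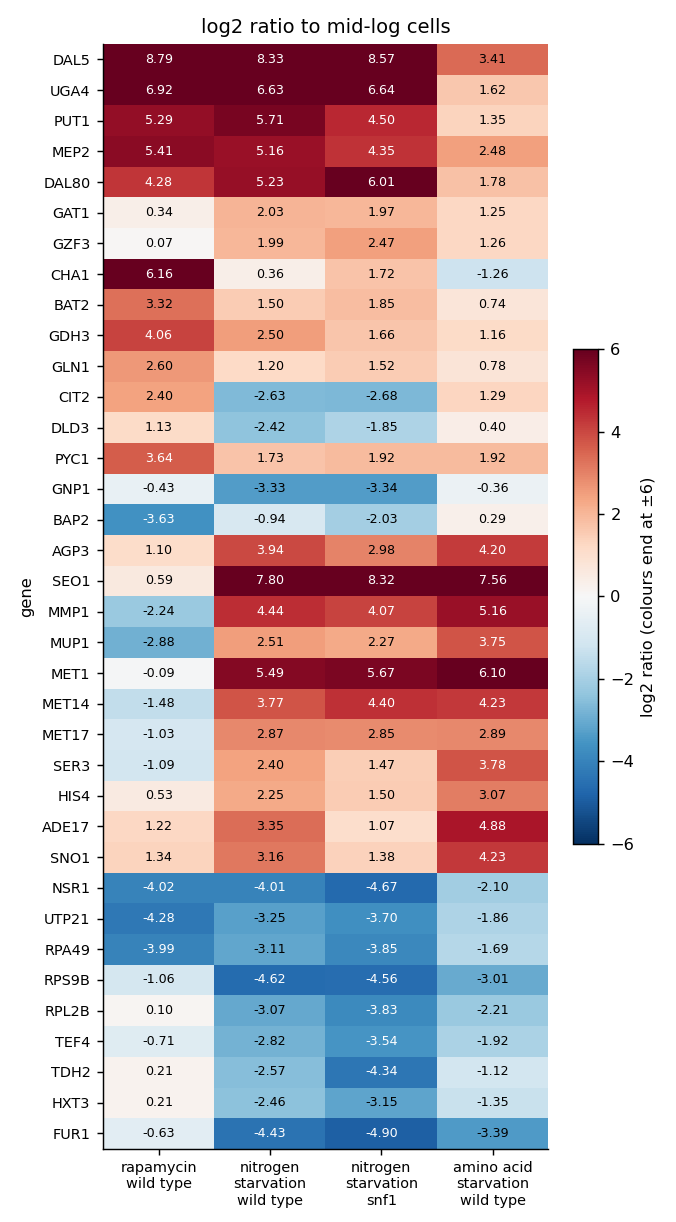
Log2 ratios to mid-log cells of selected genes (rows) in rapamycin, nitrogen starvation, nitrogen-starved snf1 cells and amino acid starvation (columns). Red is above and blue below mid-log cells, and colours end at 6 in either direction. DAL5 and UGA4 are deep red with rapamycin and in both nitrogen starvation columns, CHA1 and CIT2 stand out in the rapamycin column, and SEO1 and the sulfur genes are pale or blue there and red in the others.

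The most numerous named group past 2-fold was the ribosomal protein genes. The proteins of the small subunit had a median log2 ratio of −0.78 with rapamycin against −2.70 in nitrogen starvation, and those of the large subunit −0.74 and −2.72. The median differences were 1.99 over 55 genes and 2.03 over 80. Of the 135 genes, 117 had a ratio at least 2-fold higher with rapamycin (7.82% of all genes used did) and 68 at least 4-fold. At or below −1 were 41 of them with rapamycin against 127 in nitrogen starvation. With rapamycin 22 of the 135 stood at or above mid-log cells, among them RPS15 at 0.40 with rapamycin against −2.55 in nitrogen starvation, RPL2B at 0.10 and −3.07, and RPS0B at 0.29 and −2.72. A difference below 0 was found for 2 genes. RPS20 was near mid-log cells on both arrays, at −0.49 with rapamycin against −0.22 in nitrogen starvation, as was RPL15B, at 0.56 and 0.72.

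Yeast keeps most ribosomal protein genes as an A and a B copy. Both copies were used for 58 pairs, and in 36 pairs the copies' differences lay within 0.5 of each other, with a median gap of 0.37. Near-identical copies can share signal on an array, so a value cannot be assigned to a copy with certainty. In 9 pairs the copies' differences were at least 1 apart. RPS9A was at −4.19 with rapamycin against −4.76 in nitrogen starvation, whereas RPS9B was at −1.06 and −4.62. RPL22A was at −1.33 with rapamycin against −4.60 in nitrogen starvation, and RPL22B at −3.22 and −3.49. In both pairs the copies lay farther apart with rapamycin than in nitrogen starvation. The pair RPS22 parted in nitrogen starvation instead: RPS22A was at 0.01 with rapamycin against −2.93 in nitrogen starvation, and RPS22B at −0.52 and −0.74.

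**Figure D4:**
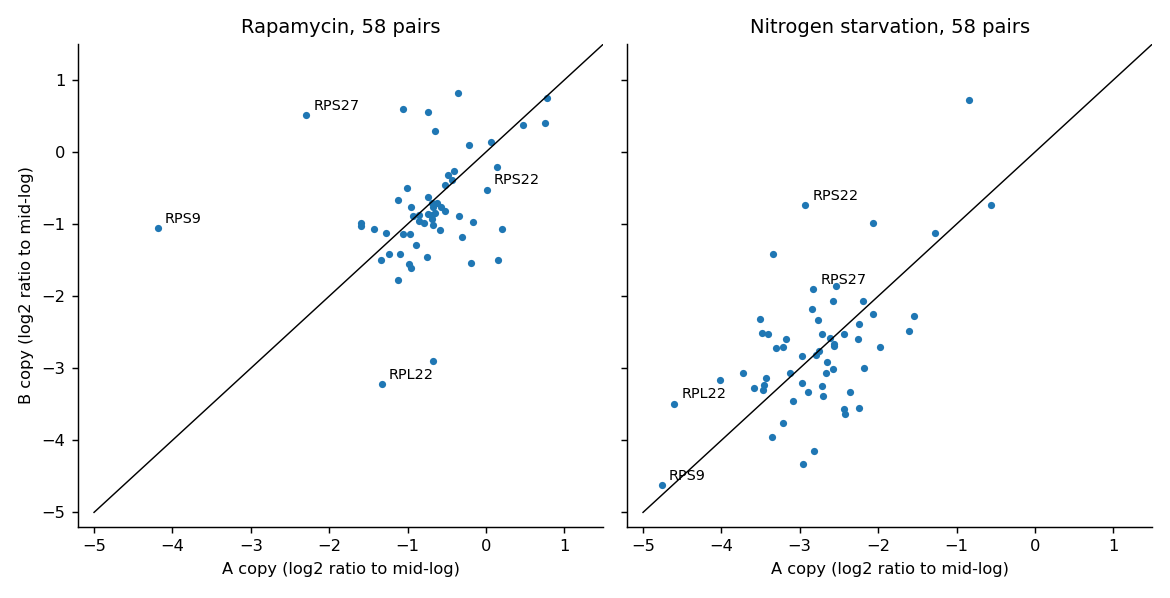
For 58 pairs of ribosomal protein genes, the log2 ratio of the B copy (vertical) is plotted against that of the A copy (horizontal), with rapamycin on the left and nitrogen starvation on the right. The line marks equal copies. Most pairs sit near −1 on the left and near −3 on the right, and RPS9, RPS27, RPL7 and RPL22 lie farthest from the line with rapamycin.

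Genes that assemble ribosomes, in contrast, were similarly low under both treatments. The small subunit processome and 40S assembly genes had medians of −2.60 with rapamycin against −2.79 in nitrogen starvation. Of the 35 used, 32 lay within 2-fold. The 60S assembly factors had −2.35 and −2.29, with 34 of 41 within 2-fold. RNA polymerases I and III had −1.76 and −1.66, with 21 of 22 within 2-fold. Of all genes used, 86.3% lay within 2-fold. NSR1, the yeast nucleolin, was at −4.02 with rapamycin against −4.01 in nitrogen starvation, EMG1 at −3.53 and −3.73, RRP12 at −4.06 and −3.33, and ENP1 at −3.45 and −3.21. UTP21, of the processome, was slightly more than 2-fold lower with rapamycin, at −4.28 and −3.25, but not against the snf1 starvation array (difference −0.58), and ARX1, a 60S export factor, was at −3.88 and −3.22. RRN3, which recruits RNA polymerase I, was at −2.68 with rapamycin against −0.95 in nitrogen starvation. At least 2-fold lower with rapamycin were 1 of the 35 processome genes, UTP21, and 4 of the 41 60S factors (5.91% of all genes used). Among these 4, CIC1 was at −3.77 with rapamycin against −2.55 in nitrogen starvation. At least 2-fold higher with rapamycin were 2 processome genes and 3 60S factors (7.82% of all genes used). The first 2 were SNU13, at −1.10 with rapamycin against −3.73 in nitrogen starvation, and the methyltransferase of box C/D particles, NOP1, at −1.83 and −4.36. Both proteins belong to those particles, which modify ribosomal RNA. The 60S factors were the helicases DBP2, at −2.62 and −4.26, and HAS1, at −1.53 and −2.76, and SDA1, at −0.77 and −2.40, whose difference against the snf1 starvation array was 0.97. Left out because they were listed at 0 on at least 1 of the arrays were 18 processome, 11 60S and 5 polymerase genes. All were at 0 with rapamycin except the 60S factor RRP1, at −1.70 with rapamycin and listed at 0 in nitrogen starvation.

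Translation factors lay between these groups. Their medians were −1.09 with rapamycin against −1.64 in nitrogen starvation. Of 41, 14 were at least 2-fold higher with rapamycin (7.82% of all genes used) and 27 within 2-fold (86.3%). The 4 genes with the largest gaps act in elongation or on the ribosome. TEF4 and EFB1, subunits of the exchange factor of elongation factor 1, were at −0.71 and −0.79 with rapamycin, against −2.82 and −2.73 in nitrogen starvation. STM1, which binds ribosomes, was at −0.90 and −2.72, and elongation factor 3 (YEF3) at −0.31 and −1.80. The initiation factor TIF11 and the release factor SUP35 had equal ratios within 0.01, at −1.18 and −1.67 with rapamycin, against −1.17 and −1.66 in nitrogen starvation. Genes that charge transfer RNAs had medians of −0.94 and −1.43, with 15 of 17 within 2-fold (86.3% of all genes used). Mitochondrial ribosomal protein genes differed little, with medians of −0.16 and −0.46 and 39 of 41 within 2-fold (86.3%).

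The medians of glycolysis and fermentation genes lay on opposite sides of mid-log cells. The list median was 0.44 with rapamycin against −0.79 in nitrogen starvation, and the median difference was 1.61. At least 2-fold higher with rapamycin were 16 of 20, against 7.82% of all genes used. With rapamycin, 8 of the 20 stood at least 2-fold above mid-log cells and 1 below. In nitrogen starvation, 1 stood above and 7 below. The glyceraldehyde-3-phosphate dehydrogenase genes TDH2 and TDH3 were at 0.21 and 2.29 with rapamycin, against −2.57 and 0.39 in nitrogen starvation. Enolase ENO2 was at 1.74 and −0.61, pyruvate decarboxylase PDC1 at 1.15 and −0.92, and alcohol dehydrogenase ADH1 at 1.42 and −0.61. The glucose transporter HXT3 was at 0.21 with rapamycin against −2.46 in nitrogen starvation. The minor isoforms PYK2 and PDC5 had similar ratios under both, at 1.41 and −0.94 with rapamycin, against 1.49 and −0.72 in nitrogen starvation. In nitrogen-starved snf1 cells the list's median was −1.98. Paralogs such as the TDH genes are close in sequence and can share signal.

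General stress genes had medians of 1.63 with rapamycin against 1.66 in nitrogen starvation, and 0.78 in nitrogen-starved snf1 cells. Of 49, 39 lay within 2-fold (86.3% of all genes used), 4 were at least 2-fold higher (7.82%) and 6 lower (5.91%). The trehalose synthase gene TPS1 was at 1.59 with rapamycin against 1.60 in nitrogen starvation. HSP26, a small heat shock protein, was at 2.10 with rapamycin against −0.70 in nitrogen starvation, and TPS2, trehalose phosphatase, at 0.81 and 2.26. Genes repressed by glucose had medians of 1.11 and 1.15, with 0.64 in nitrogen-starved snf1 cells. Those of respiration had 0.30 and 0.24, with 0.09 in nitrogen-starved snf1 cells. Oxidative defence genes had medians of 0.67 and 0.65, with glutamylcysteine synthase GSH1 at −0.65 and 1.47. Targets of heat shock factor had medians of −0.03 with rapamycin against −0.53 in nitrogen starvation. Of 27, 6 were at least 2-fold higher with rapamycin (7.82% of all genes used) and 3 at least 2-fold lower (5.91%). Below mid-log cells by 2-fold or more were 1 of them with rapamycin and 9 in nitrogen starvation. BTN2, which sorts misfolded proteins, was at −0.72 with rapamycin against 2.39 in nitrogen starvation, and the metallothionein CUP1-1 at 2.48 and 5.42. CUP1-1 cannot be told apart from its identical copy.

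The remaining lists had medians within 2-fold. Proteasome genes had a median difference of −0.04 with 32 of 33 within 2-fold (86.3% of all genes used), and histones −0.05 with 10 of 10. Ergosterol synthesis had a median difference of 0.45 and G1 and S-phase genes 0.31. The G1 cyclin CLN2 was at −0.62 with rapamycin against −2.16 in nitrogen starvation, and the a-factor gene MFA2 at 0.90 and −0.74. Metal and phosphate uptake genes had a median difference of 0.00, with 5 of 25 at least 2-fold lower (5.91% of all genes used) and 4 higher (7.82%). Of the 5, 1 was also lower against the snf1 starvation array, where the list had a median difference of 1.33. The zinc transporter ZRT1 was low on both arrays, at −4.32 with rapamycin against −3.69 in nitrogen starvation. Of 23 genes of TORC1 and its partners, 20 were within 2-fold (86.3% of all genes used). TOR1 was at −0.07 with rapamycin against 0.93 in nitrogen starvation, DOT6, a repressor of ribosome assembly genes, at 0.24 and 1.43, and IFH1, a coactivator of ribosomal protein genes, at −1.90 and −1.15. SFP1 was at −0.90 and −0.19, and SCH9 at −0.19 and −0.14.

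A second pair of arrays set rapamycin against nitrogen starvation in cells that were starved of glucose at the same time. There, 51 of 5145 of the same genes had a ratio at least 2-fold higher with rapamycin (0.991%) and 144 one at least 2-fold lower (2.8%), compared with the 7.82% and 5.91% seen with glucose. Several of the wide gaps seen with glucose were smaller in this pair. The sulfur amino acid list had medians of −0.17 for rapamycin in glucose starvation and −0.10 for combined nitrogen and glucose starvation. Small subunit proteins had −0.99 and −0.97, and glycolysis 1.52 and 0.84. The allantoin and urea genes had medians of 0.79 and 1.62, lower than with glucose. Their median difference was −0.40 in this pair, against −0.47 with glucose, and 1 of 7 was at least 2-fold lower (2.8%). The branched-chain synthesis list had a median difference of 0.88 in this pair, against −0.55 with glucose. SEO1 was at 0.90 and 0.38 in the same order, and CIT2 at 1.36 and 1.40. Whether the difference between rapamycin and nitrogen starvation itself depends on glucose was not tested, since each condition had 1 array.

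**Figure D5:**
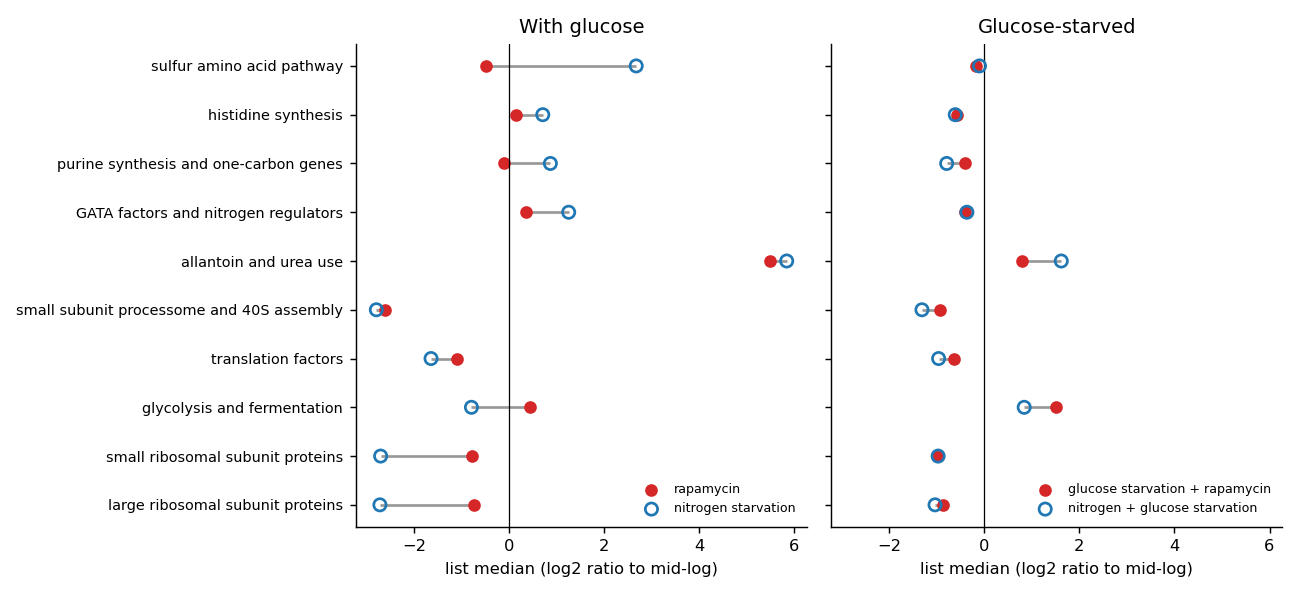
List medians of log2 ratios to mid-log cells for rapamycin (filled red) and nitrogen starvation (open blue), with glucose on the left and in glucose-starved cells on the right. Grey bars join the medians of a list. The gaps for sulfur amino acid, ribosomal protein and glycolysis genes that are wide on the left are narrow on the right.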

How the data were processed

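RNA (polyA, per the labels) of treated and mid-log cells was compared on 2-colour arrays. The authors deposited log2 ratios of Cy5 over Cy3, rounded to 0.01. No source used here names the log base, which was taken as log2 from the range of the values. Another base would rescale every value. How background, normalisation and dim spots were handled before deposit is not stated there either. No values of depth are given, so the number of arrays limits the precision. The number of columns of values not used was 0.

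There were 6256 probes for genes, and 61 control spots were left out. Of the probes, 4075 carried 1 symbol, 0 several and 2181 none. Symbols of 129 probes were updated, and 4071 matched the R64 annotation. Probes of the same gene were averaged for 7 genes, leaving 6249 genes or probes. A value of exactly 0 was taken as no value, which left out 616 genes at 0 on both arrays, 398 at 0 with rapamycin alone and 53 at 0 in nitrogen starvation alone. Values were not recentred.

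With 1 array per condition no test was made. Differences were described by counts past 2-fold and by list medians, for lists with at least 3 genes used. The members and the 42 lists were chosen with earlier results of these data known. Named by rule were, among genes with a symbol, the 15 largest differences each way, the 10 highest and 10 lowest on both arrays, the 10 largest with opposite directions, the 4 largest and 2 smallest differences of each list, and all regulators of nitrogen, sulfur, the retrograde response and TORC1. The other genes of the lists that the text names were chosen after their values were seen. Alternatives were centred arrays, scaled rapamycin values, zeros kept, genes with values on all 15 arrays, a 4-fold threshold and the snf1 starvation array. The counting was tested on simulated data. Python 3.11.15, pandas 2.3.3 and numpy 2.4.6 were used.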

Additional observations from a re-analysis of the deposited data

Results flagged for a closer look

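Genes listed at exactly 0 on the rapamycin array entered no comparison, although some had large values in nitrogen starvation. Of the 398 genes at 0 with rapamycin alone, 76 were at least 2-fold above and 43 at least 2-fold below mid-log cells in nitrogen starvation. Among members of the gene lists, 19 had an absolute log2 ratio of at least 2 there. A value listed at 0 is not a measured ratio, so no difference is given for them.

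In sulfur use, the sulfate permeases SUL1 and SUL2 stood at 6.94 and 6.38 in nitrogen starvation, the cystathionine beta-lyase STR3 at 5.69, homoserine acetyltransferase MET2 at 4.08 and the sulfate-reducing enzyme MET16 at 3.15. The pyruvate decarboxylase PDC6, a protein poor in sulfur, stood at 2.71.

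In small subunit assembly, UTP4 stood at −3.69 in nitrogen starvation, UTP13 at −3.65, SOF1 at −2.72, DHR2 at −2.55, ECM16 at −2.26, RRP3 at −2.14, ROK1 at −2.04 and DBP8 at −2.02. In 60S assembly, NOC3 stood at −3.14, PUF6 at −2.83, DBP7 at −2.66, MAK5 at −2.27 and NOP12 at −2.16. In nitrogen-starved snf1 cells SUL1 stood at 6.67 and UTP4 at −4.26.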

How the results depend on the processing

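The counts of 405 genes at least 2-fold higher and 306 lower with rapamycin became 438 and 285 with each array centred on its median, 460 and 362 with rapamycin values scaled to the spread of the nitrogen starvation array, 450 and 390 with zeros kept, and 366 and 268 over genes with a value on all 15 arrays. At 4-fold the counts were 96 higher and 60 lower. With the snf1 nitrogen starvation array in place of the wild-type one they were 712 higher and 593 lower, of 5220 genes, and this comparison uses the same rapamycin array. Against both nitrogen starvation arrays, 359 genes were at least 2-fold higher (6.95%) and 218 lower (4.22%). The 5 lists with a median past 2-fold remained so under centring, scaling, kept zeros and genes on all arrays. With the snf1 array 4 remained, and histidine synthesis was at −0.89. Of 132 named genes past 2-fold, 131 stayed past it when centred, 128 when scaled and 118 with the snf1 array, where 3 changed sign: ADE17 at 0.15, the enterobactin transporter ENB1 at 0.23 and the peroxiredoxin TSA2 at 1.55. The cause was not tested. With 1 array per condition, no array could be left out. No paired analysis was possible because no condition had a second sample. How signal limits these values is not known, and 1014 genes were listed at 0 on the rapamycin array, against 669 on the nitrogen starvation array.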

Other observations

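A few gene groups outside the lists also stood apart, and were chosen after their values were seen. In the pentose phosphate pathway, 5 of 7 genes were at least 2-fold higher with rapamycin (7.82% of all genes used). The median difference was 1.27. GND1, which makes ribulose 5-phosphate, was at 0.42 with rapamycin against −1.74 in nitrogen starvation, RPE1 at 0.46 and −1.72, and transketolase TKL1 at 0.16 and −1.76. ZWF1, the entry enzyme, was close, at 0.65 and 0.87. Chaperones and scaffold proteins bound to ribosomes behaved in the same direction as ribosomal proteins, with 5 of 7 at least 2-fold higher and a median difference of 1.53. SSB1 was at −0.13 with rapamycin against −2.59 in nitrogen starvation, its near-identical copy SSB2 at −0.07 and −2.58, and ASC1 at 0.49 and −1.14. Genes for the use of propionate and acetyl units had a median difference of 1.30. PDH1, a 2-methylcitrate dehydratase, was at 2.38 with rapamycin against −0.75 in nitrogen starvation, and ACH1, which transfers coenzyme A to acetate, at 2.59 and 0.44.

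Transcripts encoded in mitochondrial DNA had a median difference of −1.40. At least 2-fold lower with rapamycin were 6 of the 10 used (5.91% of all genes used). Of 16 on the array by name, the others were left out at 0. The 6 include COX1, AI4, AI5_ALPHA and AI5_BETA. AI5_ALPHA lies beside COX1 and AI4 in the R64 annotation, so these may not be separate transcripts. Among those within 2-fold, COB had a difference of 0.17, COX2 −0.62 and VAR1 −0.56. How well polyA RNA captures these transcripts was not tested. COX1 was at −0.53 with rapamycin against 1.82 in nitrogen starvation, and OLI1 at 0.63 and 2.14. In the glucose-starved pair the group's median difference was −1.205, and 6 of 10 were at least 2-fold lower (2.8% of all genes compared there).

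Some genes with large differences lie next to each other in the R64 annotation. MMP1 and MHT1 are neighbours, at −6.68 and −5.99. IES5, beside MET6, had a difference of −2.62. Other neighbours differed in direction: RMD6 had −2.47 beside DLD3 at 3.55, and MET3 had −3.15 beside TDH2 at 2.78.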
